A study of Mus musculus with 46 samples.

Results

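The genes described here encode enzymes of the methionine cycle, which makes and renews the methyl donor S-adenosylmethionine (SAM), and of the methionine salvage pathway, which returns a by-product of polyamine synthesis to methionine. They are *Mat2a*, *Mat2b*, *Ahcy*, *Ahcyl1*, *Mtr*, *Mtap*, *Mri1*, *Apip*, *Enoph1* and *Adi1*. They were taken as a named list and matched to the count tables by Ensembl identifier, and each was found once in each table. The list was chosen with earlier results of these data known, so its shares of calls beside those of all genes are a description. All 10 are therefore among the 16642 genes measured in both experiments, of 17514 genes in gastrocnemius and 16987 in spinalis. All 10 passed the filter on low values, as did every other gene of both tables.

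Methionine adenosyltransferase joins methionine to ATP to give SAM, and methyltransferases spend its methyl group and leave S-adenosylhomocysteine (SAH), which inhibits them until it is hydrolysed to homocysteine. Methionine synthase then remethylates homocysteine with a methyl group carried by folate. SAM is also decarboxylated to feed polyamine synthesis, which is known as an androgen-responsive process in muscle, and the methylthioadenosine left over is turned back into methionine by the salvage enzymes.

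The study asked how loss of α-actinin-3, a protein of fast muscle fibres encoded by *Actn3*, alters the response of mouse muscle to androgens. Total RNA was sequenced from C57BL6 mice of 2 genotypes, wild type (WT) and *Actn3* knockout (KO), in 2 experiments. In the castration experiment, male mice aged 8 to 10 weeks had their testes removed (orchidectomy, ORX) or had a sham operation, and the gastrocnemius, a calf muscle, was taken 12 weeks later. In the implant experiment, female mice aged 4 to 5 weeks received a silastic implant under the skin, either empty or filled with 10 mg of the androgen dihydrotestosterone (DHT), and the spinalis, a back muscle, was taken after 6 weeks. The castration groups were WT-sham with 6 mice, WT-ORX with 6, KO-sham with 6 and KO-ORX with 5, since 1 labelled KO-ORX mouse had no column. The implant groups were WT-empty with 5 mice, WT-DHT with 6, KO-empty with 5 and KO-DHT with 6. Muscle, sex and age differ together between the experiments, so their values are set side by side and not tested against each other.

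Median depth, in mega-counts (M), was 47.1 for WT-sham, 45.6 for WT-ORX, 34.3 for KO-sham and 41.6 for KO-ORX. For spinalis the medians were 47.0 M (WT-empty), 52.0 M (WT-DHT), 44.1 M (KO-empty) and 44.2 M (KO-DHT). All 6 KO-sham libraries (29.5 to 37.5 M) were smaller than all 6 WT-sham libraries (43.4 to 50.3 M). The other groups ran from 26.7 M, in KO-ORX, to 55.4 M, in WT-ORX. The smallest WT-DHT library held 34.8 M counts, and 10 genes took 43.2% of them. At these depths no member had fewer than 95 counts in any library.

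In 3 spinalis groups 2 libraries stood apart from the rest. Distance was measured as the chi-square per gene between 2 libraries of a group. In WT-DHT it was 284.7 to 630.5 between these 2 and the other 4 libraries, 20.83 to 42.49 among those 4, and 130.9 between the 2. In WT-empty it was 70.71 to 187.0 between the 2 and the other 3, against at most 54.68 among those 3, and in KO-DHT 111.2 to 269.5 between the 2 and the other 4, against at most 91.36. In each of these groups the 2 were its libraries of lowest *Adi1* and lowest *Ahcyl1* level, and in WT-empty and WT-DHT also of lowest *Mat2a* level. No library or pair met this rule in gastrocnemius or KO-empty. The spinalis results are therefore given with all libraries, without the 2 of WT-DHT, and without all 6, both alternatives chosen after seeing the data. The smallest WT-DHT library (34.8 M counts) and the smallest KO-DHT library (34.9 M) were among the 6, and the smallest WT-empty library was not. What sets these libraries apart was not tested.

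*Actn3* separated the genotypes in every group. On the log2 scale of counts per M counts (CPM), its mean level in the gastrocnemius of WT mice was 12.69 ± 0.08 (SD, n = 6) after the sham operation and 13.11 ± 0.11 (n = 6) after ORX, and in KO mice 5.50 ± 0.22 (n = 6) and 5.49 ± 0.24 (n = 5). The spinalis of WT mice gave 13.24 ± 0.10 (n = 5) with empty implants and 12.79 ± 0.13 (n = 6) with DHT, and that of KO mice 6.11 ± 0.23 (n = 5) and 6.08 ± 0.13 (n = 6). Every KO library lay below every WT library of its experiment, and the genotype differences were −7.18 (sham), −7.61 (ORX), −7.12 (empty) and −6.71 (DHT) log2 units. *Actn3* itself rose by 0.42 ± 0.09 (SE) in WT-ORX against WT-sham (adjusted p = 0.00199, higher in 6 of 6 libraries) and fell by 0.44 ± 0.09 in WT-DHT against WT-empty (adjusted p = 8.1e-04, lower in 6 of 6).

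Levels of different genes are compared as log2 CPM per kilobase of exon. On that scale *Mat2a*, the catalytic subunit that makes SAM, was the most abundant member in all 8 groups, from 4.75 ± 0.16 (SD, n = 5) in WT-empty to 5.42 ± 0.30 (n = 6) in WT-DHT. By its own counts *Ahcy*, which hydrolyses SAH, had the lowest mean level per kilobase in all 8 groups, from 0.48 ± 0.11 (n = 6) in WT-ORX to 1.30 ± 0.14 (n = 6) in WT-DHT. This leaves out *Gm4737*, which shares its sequence and held 95 to 223 counts per library in gastrocnemius and 143 to 380 in spinalis. *Apip* came after *Mat2a* per kilobase in 7 groups, and in WT-DHT *Adi1* took that place at 4.46 ± 0.22 against 4.32 ± 0.10 (n = 6 each). *Mat2b* and *Adi1* followed, and the 6 members below them lay between 0.48 and 3.02 log2 CPM per kilobase. Several neighbours in this order did not differ beyond their spread: in WT-sham the level per kilobase was 2.54 ± 0.08 for *Ahcyl1* and 2.52 ± 0.11 for *Mtr*, and 2.09 ± 0.11 for *Mtap* and 2.09 ± 0.11 for *Enoph1* (n = 6 each). *Mtr* stood at 2.05 ± 0.06 log2 CPM per kilobase in WT-ORX and at 3.02 ± 0.11 in WT-DHT (n = 6 each). In what follows levels are log2 CPM of 1 gene across libraries, and differences are log2 fold changes with their SE.

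Castration of WT mice was accompanied by lower *Mtr*, *Adi1* and *Mat2a* RNA in gastrocnemius. Tests are edgeR's quasi-likelihood F tests, and p-values were adjusted over every gene in the table by the method of Benjamini and Hochberg. At an adjusted p of 0.01, 3 of the 10 members passed in WT-ORX against WT-sham, where 5.45% of all genes passed. No member was called higher. The count was 2 without WT-sham replicate 3 or 5 or WT-ORX replicate 4 or 6, when *Mat2a* did not pass. The median fold change of the members was −0.15, against 0.01 over all genes. In KO mice 1 member passed, *Adi1*, against 5.57% of all genes in KO-ORX against KO-sham, and the members' median was −0.06 beside 0.01 over all genes. The count of 1 became 0 without KO-sham replicate 3, 4 or 6 or KO-ORX replicate 1, 2 or 3, and 2 without KO-sham replicate 5. Over all genes it fell from 975 calls to 589 without KO-ORX replicate 4 and to 606 without KO-ORX replicate 5.

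No member passed 0.05 for the interaction of genotype and ORX by edgeR, by DESeq2 or by limma-voom, although 2 members had an unadjusted p under 0.05 (*Apip* and *Mtr*). Over all genes that interaction passed for 0.0228% (4 genes), with 1683 at an unadjusted p under 0.05 and 127 passing by DESeq2 and 10 by limma-voom. Those 4 calls became 38 without KO-ORX replicate 3, 24 without WT-ORX replicate 2, and 2 without KO-sham replicate 6 or WT-ORX replicate 4. They became 7 to 10 without KO-sham replicate 2, 4 or 5 or WT-sham replicate 1, 2, 4 or 6.

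Genotypes in gastrocnemius were compared among sham-operated mice and among castrated mice. In KO-sham against WT-sham 1 member, *Adi1*, passed and was lower in KO, against 5.30% of all genes, although 7 of the 10 had an unadjusted p under 0.05. Without KO-sham replicate 5 the count was 3. That comparison is also the one in which all KO libraries were smaller, and the part of depth in it was not tested. In KO-ORX against WT-ORX edgeR called 0 of 10 members, against 3.80% of all genes. The count was also 0 by DESeq2 and limma-voom, and 1 member (*Adi1*) had an unadjusted p under 0.05.

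DHT in WT females was accompanied by higher *Mtr*, *Adi1* and *Mat2a* RNA in spinalis, the 3 genes called lower after castration of WT males, and by 2 further calls. In WT-DHT against WT-empty 5 of the 10 members passed, where 11.3% of all genes did, and beside those 3 *Ahcy* was higher and *Mtap* lower. The count stayed at 5 without the 2 WT-DHT libraries that stood apart and was 4 without all 6, when *Mtap* did not pass. It was 6 without the WT-empty library of highest *Enoph1* level, when *Enoph1* passed. The members' median fold change was 0.16 against −0.01 over all genes, and their median absolute change was 0.33 against 0.18. For the other treatment comparisons the median absolute change was 0.23 against 0.12 (WT-ORX), 0.07 against 0.14 (KO-ORX) and 0.21 against 0.16 (KO-DHT). Between genotypes it was 0.17 against 0.13 (sham), 0.03 against 0.12 (ORX), 0.07 against 0.16 (empty) and 0.18 against 0.17 (DHT). In KO-DHT against KO-empty 1 member passed, *Ahcy*, against 4.62% of all genes. Without the WT-empty library of highest *Enoph1* level, or the KO-empty library of highest *Mat2b* level, 2 members passed there. Without all 6 libraries that stood apart *Ahcy* did not pass (adjusted p = 0.0148), which left no call among the members. The median of the members was 0.20 beside −0.01 over all genes.

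The interaction of genotype and DHT passed 0.05 for 1 member, *Mtr*, against 3.24% of all genes. It passed for 2, *Mtr* and *Mat2a*, without the WT-DHT library of lowest *Mat2a* level or without both WT-DHT libraries that stood apart, and for 1 without all 6. Over all genes, leaving out all 6 brought the calls from 1914 to 1195 in WT-DHT, from 784 to 428 in KO-DHT, from 722 to 283 in KO-empty against WT-empty, from 1978 to 1301 in KO-DHT against WT-DHT and from 550 to 273 for the interaction.

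Between genotypes in spinalis, *Mtr* and *Mat2a* were lower in KO under DHT. In KO-DHT against WT-DHT these 2 of the 10 members passed, against 11.6% of all genes, and the same 2 passed without the libraries that stood apart. With empty implants edgeR called 0 of 10 members in KO-empty against WT-empty, against 4.25% of all genes. The count was 0 by DESeq2 and by limma-voom as well, and 1 member (*Enoph1*) had an unadjusted p under 0.05. Calls over all genes there went from 722 to 450 without the WT-empty library of lowest *Mat2a* level and 481 without that of highest *Enoph1* level, the 2 WT-empty libraries that stood apart. They were 453 without the KO-empty library of lowest *Mat2b* level, and 283 without all 6 libraries that stood apart. Comparisons that share a group, such as WT-DHT against WT-empty and KO-DHT against WT-DHT, share its libraries. In bulk muscle, fewer cells of a type and less RNA per cell cannot be told apart. This holds for every difference given here except that of *Actn3*, the gene knocked out, between genotypes.

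**Figure D1:**
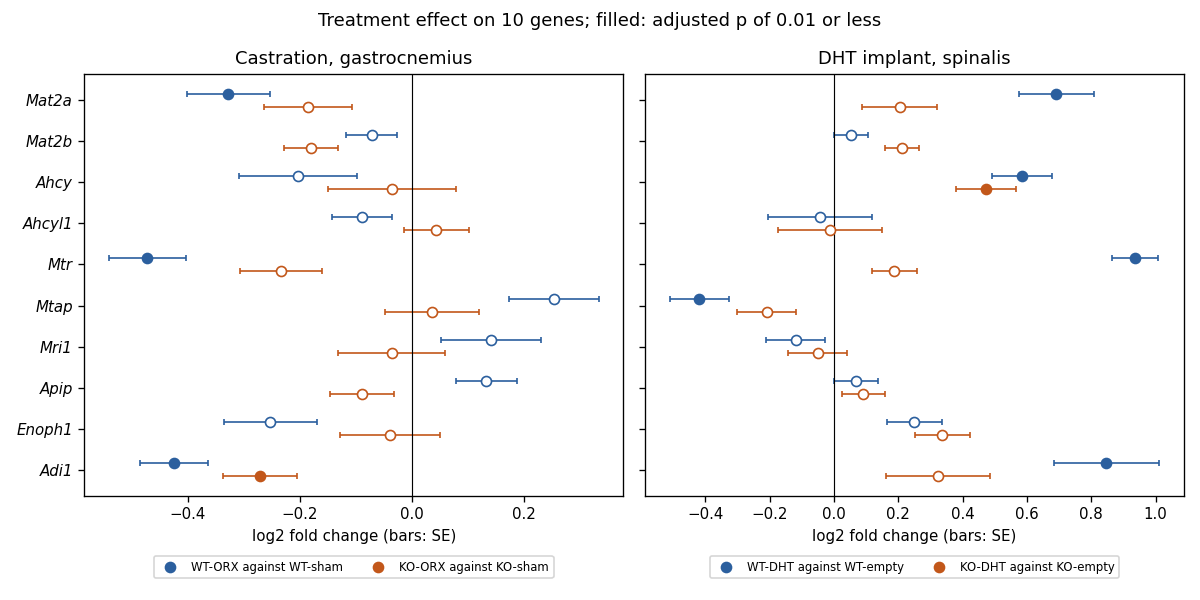
Log2 fold change of the 10 members (horizontal axis, bars give the SE) after castration in gastrocnemius (left) and with DHT in spinalis (right), in WT (blue) and KO (orange) mice; filled points have an adjusted p of 0.01 or less. In WT mice *Mat2a*, *Mtr* and *Adi1* lie below 0 after castration and above 0 with DHT, with *Mtr* at −0.47 and 0.93; under library-size scaling *Mat2a* after castration has an adjusted p of 0.0167.

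SAM synthesis comes first in the cycle. *Mat2a* (ENSMUSG00000053907, chromosome 6 in GRCm38) encodes the catalytic subunit of the methionine adenosyltransferase of muscle and most other tissues outside the liver. In WT-sham its level ran from 7.27 to 7.61 with a median of 7.49, and in WT-ORX from 6.98 to 7.33 with a median of 7.16. The groups overlapped in 1 library each: 5 of 6 WT-ORX libraries lay below every WT-sham library, and WT-ORX replicate 5 at 7.33 lay above WT-sham replicate 6 at 7.27. The fold change was −0.33 ± 0.07 (adjusted p = 0.00376). The call was lost without WT-sham replicate 3 (adjusted p = 0.0114), WT-sham replicate 5 (0.0125), WT-ORX replicate 4 (0.0128) or WT-ORX replicate 6 (0.0134), and with library-size scaling (0.0167). KO-sham ran from 7.07 to 7.52 with a median of 7.37, and the KO-ORX libraries stood at 6.97, 7.07, 7.17, 7.18 and 7.40. These groups lay within each other's range except for 1 KO-ORX and 3 KO-sham libraries, and the difference of −0.19 ± 0.08 did not pass (adjusted p = 0.133). The interaction of 0.14 ± 0.11 did not pass either (adjusted p = 0.706).

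In spinalis *Mat2a* stood at 6.76, 6.82, 6.87, 6.96 and 7.17 in the WT-empty libraries, the lowest 2 being those that stood apart, and ran from 7.21 to 7.91 in WT-DHT with a median of 7.64. All 6 WT-DHT libraries lay above all 5 WT-empty libraries, though the WT-DHT libraries spread widely (SD 0.30): the 2 that stood apart were at 7.21 and 7.25 and the other 4 at 7.55 or above. The fold change was 0.69 ± 0.12 (adjusted p = 1.04e-04). The KO-empty libraries stood at 6.80, 6.85, 6.89, 6.92 and 7.12, and KO-DHT ran from 6.77 to 7.25 with a median of 7.16. Here 4 of 6 KO-DHT libraries lay above every KO-empty library and 1 lay below all of them, and the difference of 0.20 ± 0.12 did not pass (adjusted p = 0.285). *Mat2a* was lower in KO-DHT than in WT-DHT by 0.49 ± 0.11 (adjusted p = 0.00232), with 4 of 6 KO-DHT libraries below every WT-DHT library. With library-size scaling that difference did not pass (adjusted p = 0.028).

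The *Mat2a* interaction with DHT depended on the WT-DHT libraries that stood apart. It was −0.49 ± 0.16 with all libraries and did not pass 0.05 (adjusted p = 0.119). It passed without the WT-DHT library of lowest *Mat2a* level (−0.55, adjusted p = 0.0425) and without both WT-DHT libraries that stood apart (−0.63, adjusted p = 0.00709), and did not pass without all 6 (−0.51, adjusted p = 0.0518). With all libraries, then, the responses of WT and KO are not shown to differ for *Mat2a*. The response in WT was 0.84 without the 2 (adjusted p = 1.43e-06) and 0.76 without all 6 (adjusted p = 2.76e-05), and KO-DHT lay below WT-DHT by 0.64 (adjusted p = 3.91e-05) and 0.60 (adjusted p = 1.54e-04).

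*Mat2b* (ENSMUSG00000042032, chromosome 11) encodes the regulatory subunit of the same enzyme. Its level varied little, from 6.11 to 6.51 over the 23 gastrocnemius libraries and from 5.89 to 6.30 over the 22 spinalis libraries. Its values came nearest to passing in KO mice. All 5 KO-ORX libraries lay below all 6 KO-sham libraries, at −0.18 ± 0.05 (adjusted p = 0.013), and all 6 KO-DHT libraries lay above all 5 KO-empty libraries, at 0.21 ± 0.05 (adjusted p = 0.0105). Neither passed 0.01 by edgeR in the main fit. DESeq2 gave 0.00211 and 0.00237, and limma-voom 0.00979 for the KO-DHT difference. With replicate number as a block the KO-ORX difference passed (−0.19, adjusted p = 0.0077). Without KO-sham replicate 5 the KO-ORX difference passed (−0.20, adjusted p = 0.00615), and without the KO-empty library of highest *Mat2b* level the KO-DHT difference passed (0.24, adjusted p = 0.00654). In WT mice *Mat2b* differed by −0.07 ± 0.04 after castration (adjusted p = 0.371) and by 0.05 ± 0.05 with DHT (adjusted p = 0.567). Its interactions were −0.11 ± 0.07 for ORX (adjusted p = 0.623) and 0.16 ± 0.07 for DHT (adjusted p = 0.303). In WT spinalis, then, the catalytic subunit was higher with DHT and the regulatory subunit had no difference that passed.

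SAH hydrolysis removes the product that inhibits methyltransferases. *Ahcy* (ENSMUSG00000027597, chromosome 2) encodes the hydrolase, and its counts were low, from 95 to 235 per library in gastrocnemius and from 161 to 401 in spinalis. Much of its sequence is shared: 65.9% of its 75-base words also occur in *Gm4737*, *Gm9826* or *Gm5638*, so part of its reads may be counted elsewhere or not at all. In spinalis the WT-empty libraries stood at 2.13, 2.21, 2.22, 2.24 and 2.27, and WT-DHT ran from 2.57 to 2.98 with a median of 2.81. The KO-empty libraries stood at 1.98, 2.07, 2.18, 2.29 and 2.30, and KO-DHT ran from 2.42 to 2.85 with a median of 2.63. In each genotype all 6 DHT libraries lay above all 5 empty-implant libraries, and DHT libraries of the genotypes overlapped. *Ahcy* was higher with DHT by 0.58 ± 0.09 in WT (adjusted p = 5.35e-05) and by 0.47 ± 0.09 in KO (adjusted p = 0.00177). The KO difference did not pass when only KO-empty and KO-DHT were fitted (adjusted p = 0.0171). Without all 6 libraries that stood apart the KO difference was 0.49 and did not pass (adjusted p = 0.0148), and the WT difference was 0.62 (adjusted p = 0.00354). The interaction was −0.11 ± 0.13 (adjusted p = 0.755). With the counts of *Gm4737* and *Gm9826* added, an alternative chosen after seeing the data, the DHT differences were 0.63 in WT (adjusted p = 1.85e-06) and 0.45 in KO (adjusted p = 4.99e-04).

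In gastrocnemius *Ahcy* ran from 2.09 to 2.35 in WT-sham (median 2.14) and from 1.77 to 2.09 in WT-ORX (median 1.98). The groups met at 2.09 without crossing, and the difference of −0.20 ± 0.11 did not pass (adjusted p = 0.258). The KO-ORX libraries stood at 1.77, 1.79, 1.91, 2.04 and 2.41, on both sides of the KO-sham range of 1.83 to 2.30. The difference there was −0.04 ± 0.11 (adjusted p = 0.889), and the interaction was 0.17 ± 0.16 (adjusted p = 0.768).

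*Ahcyl1* (ENSMUSG00000027893, chromosome 3) encodes a relative of the hydrolase known as a regulator of the inositol trisphosphate receptor. Its level ran from 5.03 to 5.40 in gastrocnemius and from 4.43 to 5.50 in spinalis. It passed in none of the 10 comparisons by edgeR, its fold changes lay between −0.11 and 0.13, and its lowest unadjusted p was 0.0484, in KO-sham against WT-sham. Its spread in KO-DHT (SD 0.39, n = 6) was wider than any of these differences. In WT-empty, WT-DHT and KO-DHT the 2 libraries that stood apart were the lowest for *Ahcyl1*, and without all 6 its difference in KO-DHT was 0.18 in place of −0.01 and did not pass (adjusted p = 0.411). *Ahcy* was thus called with DHT and *Ahcyl1* was not, and the genes were not tested against each other.

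Remethylation closes the cycle. *Mtr* (ENSMUSG00000021311, chromosome 13) encodes methionine synthase, the cobalamin-dependent enzyme that moves a methyl group from folate to homocysteine. In WT-sham it ran from 5.51 to 5.78 with a median of 5.59, and in WT-ORX from 5.04 to 5.21 with a median of 5.16. All 6 WT-ORX libraries lay below all 6 WT-sham libraries. The fold change was −0.47 ± 0.07 (adjusted p = 2.24e-05), the largest of any member after castration. KO-sham ran more widely, from 5.18 to 5.65 with a median of 5.37, and the KO-ORX libraries stood at 5.06, 5.08, 5.21, 5.25 and 5.28. In KO mice 2 of 5 KO-ORX libraries lay below every KO-sham library, and the difference of −0.23 ± 0.07 did not pass (adjusted p = 0.036). The interaction of 0.24 ± 0.10 did not pass (adjusted p = 0.422). Among sham-operated mice 4 of 6 KO-sham libraries lay below every WT-sham library, at −0.21 ± 0.07 (adjusted p = 0.0527). Among castrated mice the genotypes lay at 0.03 ± 0.07 of each other (adjusted p = 0.872).

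*Mtr* had the largest difference of any member with DHT in WT. The WT-empty libraries stood at 5.05, 5.14, 5.15, 5.17 and 5.39, and WT-DHT ran from 5.93 to 6.27 with a median of 6.11. The KO-empty libraries stood at 5.13, 5.15, 5.25, 5.31 and 5.46, and KO-DHT ran from 5.39 to 5.59 with a median of 5.42. WT-DHT thus lay above the 3 other groups with no overlap, while only 2 of 6 KO-DHT libraries lay above every KO-empty library. *Mtr* rose by 0.93 ± 0.07 in WT (adjusted p = 4.66e-10, higher in 6 of 6), and the KO difference of 0.19 ± 0.07 did not pass (adjusted p = 0.0899). The interaction was −0.75 ± 0.10 (adjusted p = 5.07e-05). *Mtr* was the one member whose response to DHT was shown to differ between genotypes. Under DHT it was lower in KO by 0.67 ± 0.07 (adjusted p = 8.23e-08, lower in 6 of 6), and with empty implants the genotypes lay at 0.08 ± 0.07 of each other (adjusted p = 0.559). These calls held by DESeq2, by limma-voom, with library-size scaling and without any single library; the interaction ranged from −0.81 to −0.69 when each library was left out in turn. Without the 2 WT-DHT libraries that stood apart the *Mtr* interaction was −0.76 (adjusted p = 9.87e-05), and without all 6 it was −0.69 (adjusted p = 0.00359).

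**Figure D2:**
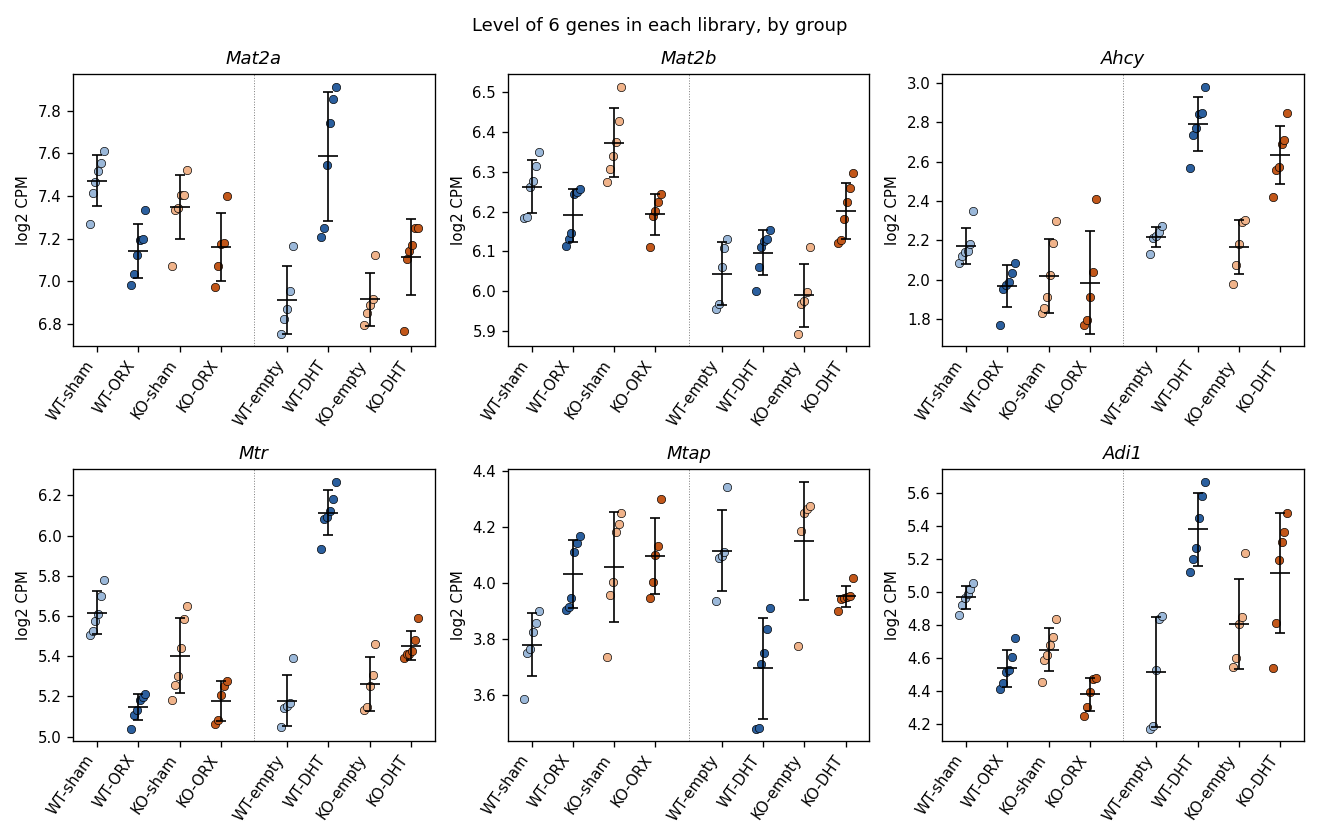
Level (log2 CPM, vertical axis) of 6 members in each library, by group; points are libraries, bars give the mean and SD, and the dotted line separates gastrocnemius from spinalis. *Mtr* in WT-DHT, at 5.93 to 6.27, lies above every other spinalis library, and *Adi1* in WT-sham, at 4.86 to 5.05, above every other gastrocnemius library.

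The salvage pathway begins with *Mtap* (ENSMUSG00000062937, chromosome 4), which cleaves methylthioadenosine, the by-product of spermidine and spermine synthesis. It was the one called member that moved opposite to the others. In spinalis the WT-empty libraries stood at 3.94, 4.09, 4.10, 4.11 and 4.34, and WT-DHT ran from 3.48 to 3.91 with a median of 3.73. All 6 WT-DHT libraries lay below all 5 WT-empty libraries, and *Mtap* fell by 0.42 ± 0.09 (adjusted p = 0.00176). Without the 2 WT-DHT libraries that stood apart the fall was 0.49 (adjusted p = 0.00119), and without all 6 it was 0.42 and did not pass (adjusted p = 0.0192). The KO-empty libraries stood at 3.78, 4.19, 4.25, 4.27 and 4.27, and KO-DHT ran narrowly from 3.90 to 4.02 with a median of 3.95. Here 4 of 5 KO-empty libraries lay above every KO-DHT library and the other lay below them all, and the difference of −0.21 ± 0.09 did not pass (adjusted p = 0.152). The interaction was 0.21 ± 0.13 (adjusted p = 0.482). Under DHT *Mtap* was 0.25 ± 0.09 higher in KO than in WT without passing 0.01 (adjusted p = 0.0491), and it passed with library-size scaling (0.34, adjusted p = 0.00385).

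In gastrocnemius *Mtap* ran from 3.59 to 3.90 in WT-sham (median 3.80) and from 3.91 to 4.17 in WT-ORX (median 4.03). All 6 WT-ORX libraries lay above all 6 WT-sham libraries, yet the difference of 0.25 ± 0.08 did not pass 0.01 (adjusted p = 0.0432). In KO mice the difference after castration was 0.04 ± 0.08 (adjusted p = 0.849), and the interaction was −0.22 ± 0.12 (adjusted p = 0.575). KO-sham lay 0.28 ± 0.08 above WT-sham (adjusted p = 0.0222, 5 of 6 libraries above every WT-sham library). That difference passed by DESeq2 (adjusted p = 0.00851) and, by edgeR, without KO-sham replicate 5 (0.34, adjusted p = 0.0036).

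The next salvage steps are an isomerase (*Mri1*, ENSMUSG00000004996, chromosome 8), a dehydratase (*Apip*, ENSMUSG00000010911, chromosome 2) and an enolase-phosphatase (*Enoph1*, ENSMUSG00000029326, chromosome 5). None of the 3 passed in any of the 10 comparisons by edgeR. *Mri1* ran from 2.97 to 3.57 in gastrocnemius and from 3.21 to 3.81 in spinalis, with fold changes between −0.18 and 0.14 and no unadjusted p under 0.05. *Apip* was among the steadiest members, from 4.34 to 4.69 in gastrocnemius and from 4.02 to 4.51 in spinalis. *Apip* came nearest to passing in KO-sham against WT-sham, at 0.20 ± 0.05 (adjusted p = 0.0185), with 5 of 6 KO-sham libraries above every WT-sham library. It passed there by DESeq2 (adjusted p = 0.00703) and without KO-sham replicate 5 (0.23, adjusted p = 0.00582).

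*Enoph1* ran from 2.78 to 3.55 in gastrocnemius and from 2.82 to 3.65 in spinalis. With DHT it was 0.25 ± 0.09 higher in WT (adjusted p = 0.0432) and 0.34 ± 0.09 higher in KO (adjusted p = 0.0128), where all 6 KO-DHT libraries lay above all 5 KO-empty libraries. Without the WT-empty library of highest *Enoph1* level, 1 of the 2 that stood apart, both differences passed, at 0.32 (adjusted p = 0.00804) in WT and at 0.33 (adjusted p = 0.00752) in KO, whose fit shares its estimate of spread with the WT groups. DESeq2 called the KO difference (adjusted p = 0.0061). After castration *Enoph1* differed by −0.25 ± 0.08 in WT (adjusted p = 0.051) and by −0.04 ± 0.09 in KO (adjusted p = 0.842). KO-sham lay 0.29 ± 0.08 below WT-sham (adjusted p = 0.0263) and KO-empty 0.29 ± 0.09 below WT-empty (adjusted p = 0.0425). Its interactions were 0.21 ± 0.12 for ORX (adjusted p = 0.6) and 0.09 ± 0.12 for DHT (adjusted p = 0.8).

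*Adi1* (ENSMUSG00000020629, chromosome 12) encodes the dioxygenase that yields the oxo acid from which methionine is regained. It was the member called most often in gastrocnemius. In WT-sham it ran from 4.86 to 5.05 with a median of 4.97, and in WT-ORX from 4.41 to 4.72 with a median of 4.52. KO-sham ran from 4.46 to 4.84 with a median of 4.65, and the KO-ORX libraries stood at 4.25, 4.31, 4.39, 4.47 and 4.48. WT-sham thus lay above the 3 other groups with no overlap, and 3 of 5 KO-ORX libraries lay below every KO-sham library. *Adi1* fell by 0.42 ± 0.06 after castration in WT (adjusted p = 2.05e-05) and by 0.27 ± 0.07 in KO (adjusted p = 0.00692). It was also 0.31 ± 0.06 lower in KO-sham than in WT-sham (adjusted p = 0.00113, 6 of 6 below). The interaction of 0.15 ± 0.09 did not pass (adjusted p = 0.612).

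The KO call of *Adi1* after castration was weak. It was lost without KO-sham replicate 3 (adjusted p = 0.0185), 4 (0.0138) or 6 (0.0223), and without KO-ORX replicate 1 (0.0274), 2 (0.0209) or 3 (0.0117). It was also lost by limma-voom (0.0135), with library-size scaling (−0.16, adjusted p = 0.136), with replicate number as a block (−0.25, adjusted p = 0.0183) and when only KO-sham and KO-ORX were fitted (0.0307). Library-size scaling moved the median of all genes in KO-ORX against KO-sham from 0.01 to 0.12 log2 units.

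In spinalis the WT-empty libraries stood at 4.17, 4.19, 4.53, 4.84 and 4.86 for *Adi1*, and WT-DHT ran from 5.12 to 5.67 with a median of 5.35. All 6 WT-DHT libraries lay above all 5 WT-empty libraries. The lowest 2 of WT-empty (4.17 and 4.19), of WT-DHT (5.12 and 5.20) and of KO-DHT (4.54 and 4.81) were the libraries that stood apart. *Adi1* rose by 0.85 ± 0.16 in WT (adjusted p = 5.2e-04), by 0.94 without the 2 of WT-DHT (adjusted p = 5.31e-04) and by 0.75 without all 6 (adjusted p = 0.00142). The KO-empty libraries stood at 4.55, 4.60, 4.80, 4.85 and 5.23, and KO-DHT ran from 4.54 to 5.48 with a median of 5.25. These KO groups overlapped, with 3 of 6 KO-DHT libraries above every KO-empty library and 1 below all of them. The difference of 0.32 ± 0.16 did not pass (adjusted p = 0.218), nor did the interaction of −0.52 ± 0.23 (adjusted p = 0.269), and without all 6 they were 0.52 (adjusted p = 0.0151) and −0.23 (adjusted p = 0.67) and did not pass. The step that opens salvage (*Mtap*) was thus lower with DHT in WT, and *Adi1*, near its end, higher.

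Shared sequence was checked for all members, because reads that match several genes may be lost or misplaced. Besides *Ahcy*, only *Mat2a* shared any 75-base word with another gene: 10.2%, with *Gm9523* and with *Particl*, which overlaps *Mat2a* by 508 bases on the opposite strand. With *Gm9523* added to *Mat2a*, its differences were −0.33 in WT-ORX (adjusted p = 0.0037) and 0.69 in WT-DHT (adjusted p = 1.04e-04). *Particl* itself did not pass in WT-DHT (0.18 ± 0.16, adjusted p = 0.509) or in KO-DHT (0.67 ± 0.16, adjusted p = 0.0101). The other 8 members shared no such word.

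Markers of other cell types were read beside these results. The summed slow fibre markers (*Myh7*, *Tnnt1*, *Tnni1*, *Tnnc1* and *Atp2a2*, with *Myh7* the most abundant) stood at 289.6, 560.6, 721.4, 1049.0 and 1468.0 CPM in WT-empty and ran from 144.4 to 712.9 CPM in WT-DHT with a median of 324.1. In KO-empty they stood at 660.4, 971.2, 1269.0, 1522.0 and 1625.0 CPM, and in KO-DHT ran from 201.6 to 853.3 with a median of 290.3. Their median fold change with DHT was −1.30 in WT and −1.74 in KO, though none of the 5 passed by edgeR. The summed adipocyte markers, led by *Cfd*, had a median of 516.2 CPM in WT-empty and 232.8 in WT-DHT, and 1 of 5 passed (*Cfd*, −1.20). The adipocyte sums were 305.8, 457.6, 516.2, 637.9 and 697.2 CPM in WT-empty and ran from 118.4 to 502.7 in WT-DHT. No marker was at 0 in any library, the lowest being *Pax7* at 34 counts. The part of slow fibres and adipocytes in the DHT results of the members was not tested.

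All marker calls are given here by comparison, with the list medians that lay at 0.20 or more from 0 and those of lists that held a call. The fast fibre markers were *Myh4*, *Myh1*, *Myh2*, *Tnnt3*, *Ckm* and *Acta1*. Over all genes 11.3% passed in WT-DHT, 4.62% in KO-DHT against KO-empty, 11.6% in KO-DHT against WT-DHT and 4.25% in KO-empty. In gastrocnemius the shares were 5.45% in WT-ORX, 5.57% in KO-ORX against KO-sham, 5.30% in KO-sham and 3.80% in KO-ORX against WT-ORX. In WT-DHT against WT-empty the medians were −1.30 for slow fibres, 0.69 for blood, −0.66 for satellite cells, −0.54 for adipocytes, −0.39 for Schwann cells, 0.39 for endothelium and 0.16 for fibroblasts. Beside *Cfd*, 1 of 3 endothelial markers was higher there (*Pecam1*, 0.33), and of 4 fibroblast markers 1 was higher (*Dcn*, 0.54) and 1 lower (*Pdgfra*, −0.44). In KO-DHT against KO-empty the medians were −1.74 for slow fibres, −0.50 for blood and −0.05 for fibroblasts, of which 1 marker was higher (*Dcn*, 0.51). In KO-DHT against WT-DHT both satellite cell markers were higher in KO (*Pax7* 1.24 and *Myf5* 0.89; median 1.06), with summed medians of 6.05 and 2.79 CPM, and 1 of 6 fast fibre markers was lower (median −0.12). The other medians there were 0.53 for adipocytes, −0.43 for blood and 0.26 for Schwann cells.

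In KO-empty against WT-empty 1 fast fibre marker was lower (median −0.25), and the other medians were 0.84 for blood, 0.55 for slow fibres, 0.39 for satellite cells and 0.20 for endothelium. For the interaction with DHT no marker passed by edgeR, and the medians were −1.18 for blood, 0.68 for satellite cells, −0.50 for slow fibres, 0.41 for adipocytes and 0.22 for Schwann cells. The summed fast fibre markers were highest, in WT-empty (150100 and 156000 CPM) and in KO-DHT (127000 and 129700 CPM), in the 2 libraries that stood apart. In WT-DHT those 2 were at 146500 and 158400 CPM, with another library between them at 148900 CPM. The part of these cells in the members' results was not tested.

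In gastrocnemius 1 of 6 fast fibre (median 0.02), 1 of 4 fibroblast (−0.13) and 1 of 4 macrophage markers (−0.05) were lower in WT-ORX than in WT-sham. The other medians there were 0.40 for satellite cells, 0.36 for slow fibres, −0.36 for blood and −0.25 for adipocytes. In KO-ORX against KO-sham 2 fast fibre markers were lower (median −0.16), and the median of slow fibres was 0.25. In KO-sham against WT-sham 1 fast fibre (median −0.08) and 1 macrophage marker (−0.20) were lower and 1 of 2 satellite cell markers was higher (0.65), with medians of −0.26 for fibroblasts and 0.21 for slow fibres. In KO-ORX against WT-ORX 3 fast fibre markers were lower (median −0.30), with medians of 0.52 for adipocytes, 0.44 for blood and 0.41 for satellite cells. For the interaction with ORX no marker passed by edgeR, and the medians were 0.43 for blood, 0.29 for fibroblasts, 0.26 for adipocytes and −0.23 for satellite cells. The part of these cells in the castration results of the members was not tested.

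The rest of the pathway gives the setting in which the members moved, and its lists too were chosen with earlier results of these data known. Calls named in these lists held without any single library unless the number of fits that lost them is given, out of 23 fits in gastrocnemius or 22 in spinalis. Of 16 neighbours of the methionine cycle, 13 were measured, and *Mat1a*, *Bhmt* and *Bhmt2*, known from liver and kidney, were absent from both tables. In WT-DHT 4 of the 13 were lower, where 11.3% of all genes passed: *Cth* (−2.32), *Gnmt* (−2.15), *Kyat3* (−1.42) and *Adk* (−0.39). *Cth* leads homocysteine on to cysteine, and *Gnmt* spends SAM on glycine. Under DHT 5 of the 13 were higher in KO than in WT, against 11.6% of all genes, among them *Gnmt* (1.95), *Cth* (1.13), *Kyat3* (0.90) and *Adk* (0.48). Without the 2 WT-DHT libraries that stood apart *Gnmt* (adjusted p = 0.0115) and *Cth* (0.0103) did not pass there, and without all 6 neither did *Gnmt* in WT-DHT (0.0235).

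The interaction with DHT passed for 3 of these 13, against 3.24% of all genes: *Cth* (1.49), *Kyat3* (0.89) and *Adk* (0.51). *Cth* did not pass it without all 6 libraries that stood apart (adjusted p = 0.187). In KO-DHT against KO-empty 1 of the 13, *Kyat3*, was lower (−0.53; lost in 6 fits), against 4.62% of all genes. After castration 1 was higher in WT, *Cth* (0.80; lost in 6 fits), against 5.45% of all genes. In KO 3 were lower, against 5.57% of all genes: *Slc25a26* (−0.35), *Kyat1* (−0.30; lost in 14 fits) and *Mmachc* (−0.28; lost in 2 fits). None of these 3 passed with library-size scaling.

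Folate enzymes supply the methyl group that *Mtr* uses, and all 15 listed were measured. In WT-DHT *Mthfd2* was higher (1.76) and *Aldh1l1* (−1.33), *Shmt1* (−1.25) and *Mthfd1* (−0.42) were lower, which makes 4 of 15 against 11.3% of all genes. *Mthfd2* also passed for the interaction with DHT (−1.76). After castration *Shmt1* was higher in WT (0.81) and in KO (0.67), and in WT *Mthfd2* (−0.82) and *Slc25a32* (−0.37) were lower. These are 3 of 15 in WT and 1 in KO, against 5.45% and 5.57% of all genes. In KO-DHT against KO-empty *Shmt1* was lower (−0.86). Against WT-DHT, KO-DHT had higher *Aldh1l1* (0.86) and lower *Mthfd2* (−1.24), *Aldh1l2* (−0.94) and *Slc25a32* (−0.48), 4 of 15 against 11.6% of all genes. Without all 6 libraries that stood apart *Aldh1l1* did not pass there (adjusted p = 0.0159).

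Methyltransferases spend SAM. For 11 enzymes that methylate small molecules the median fold change in WT-DHT was 0.0015 and the median absolute change 0.13, and for 16 that methylate protein, DNA or RNA the median was 0.04, beside −0.0063 and 0.18 over all genes. Of the 11 none passed in WT-DHT by edgeR and 2 of the 16 did, *Mettl21c* (2.25) and *Carm1* (0.43; lost in 5 fits), against 11.3% of all genes. Under DHT 4 of the 11 were higher in KO than in WT, against 11.6% of all genes: *Gamt* (0.57), *Coq5* (0.49), *Coq3* (0.39) and *Carnmt1* (0.34). *Inmt* was lower in WT-ORX (−0.93) and in KO-ORX (−1.42) and higher in KO-DHT (1.46), and *Gamt* was higher in WT-ORX (0.53) and in KO-empty against WT-empty (0.73). *Inmt* in KO-DHT did not pass without all 6 libraries that stood apart (adjusted p = 0.0108). In KO-ORX lower *Coq5* (−0.31), *As3mt* (−0.32; lost in 4 fits) and *Carnmt1* (−0.30; lost in 5 fits) also passed, none of them with library-size scaling.

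Further calls of small-molecule methyltransferases were lost without single libraries. In KO-DHT against KO-empty these were *Coq5* (0.35; lost in 17 fits) and *Carnmt1* (0.32; lost in 16 fits), and in KO-sham against WT-sham *Coq3* (0.33; lost in 7 fits) and *Coq5* (0.25; lost in 3 fits). *Mettl21c*, a lysine methyltransferase of muscle, was lower in WT-ORX (−0.76), in KO-DHT against WT-DHT (−1.52) and in KO-sham against WT-sham (−0.47; lost in 4 fits), with an interaction of −1.57, and *Mettl21e* had an interaction of 1.14. The other calls of its list were *Setd3* in KO-ORX against KO-sham and against WT-ORX (−0.18 in both; lost in 9 fits of each), *Setd7* in KO-sham (0.22; lost in 6 fits) and *Dnmt1* in KO-empty (0.40; lost in 7 fits).

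Polyamine synthesis is the other user of SAM, and its 5 listed enzymes include *Amd1* and *Amd2*, which share 72.5% and 79.2% of their 75-base words with each other or with related genes, so that their counts are not independent. In WT-DHT 4 of 5 were higher (*Amd1* 3.45, *Amd2* 3.43, *Odc1* 2.32, *Sms* 0.52) and in KO-DHT 3 (*Amd2* 2.84, *Amd1* 2.80, *Odc1* 1.11), against 11.3% and 4.62% of all genes. In WT-ORX 4 were lower and in KO-ORX 3 (*Amd2* −2.32, *Amd1* −2.31, *Odc1* −0.79), against 5.45% and 5.57%. Between genotypes 4 were lower in KO-sham against WT-sham (*Odc1* −1.19) and 3 in KO-ORX against WT-ORX, against 5.30% and 3.80% of all genes. In KO-DHT against WT-DHT 4 were lower (*Odc1* −1.62) and in KO-empty against WT-empty 1, against 11.6% and 4.25%. The interaction with DHT passed for 4, against 3.24% of all genes. These were *Odc1* (−1.21), *Amd1* (−0.65), *Sms* (−0.38) and *Amd2* (−0.59, lost in 12 fits and by limma-voom). Of these only *Odc1* passed without all 6 libraries that stood apart.

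The genes whose levels were most like a called member's across libraries were found by Pearson's r of log2 CPM, as a description over libraries that share the treatment. Over the 22 spinalis libraries *Mtr* was nearest to *Vcl* (r = 0.96), *Supt3* (0.96) and *Pcnx* (0.95). Over the 23 gastrocnemius libraries *Mtr* was nearest to *Pcnx* (0.91), *Anxa7* (0.91) and *Aars* (0.89), so that *Pcnx* was among its nearest genes in both muscles. *Adi1* was nearest to *Trim54* (0.93), *Bhlhe41* (0.92) and *Isca1* (0.90) in spinalis and to *Spns2* (0.92), *Rab12* (0.92) and *Gm7993* (0.92) in gastrocnemius. For *Mat2a* they were *Metap2* (0.89), *Gm9523* (0.89), which shares its sequence, and *Lmod3* (0.88) in spinalis, and *Tm9sf2* (0.86), *Gm32219* (0.86) and *Erap1* (0.85) in gastrocnemius. *Ahcy* was nearest to *Galnt17* (0.93), *Amd-ps3* (0.93) and *Amd1* (0.92) in spinalis. For *Mtap* they were *Gm36495* (0.83), *Pomk* (0.82) and *Gm49477* (0.82).

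Promoters are shown for the members whose calls with DHT passed in WT spinalis, to set the sequence of genes that rose beside that of *Mtap*, which fell. RefSeq promoters of 300 bases (GRCm38.p6) were found for 9 of the 10 members; *Adi1* had no entry. *Ahcyl1* had 3 windows and each other member 1, which makes 11. Searched on both strands, the CCAAT box (CCAAT or ATTGG) was in 7 of these 11 windows, each of a different member, and in 37.4% of all 32851 windows. The GC box (GGGCGG or CCGCCC) was in 9 of 11, 2 of them of *Ahcyl1*, against 35.7% of all. The TATA box (TATAAA or TTTATA; 13.6% of all) was in 1 of the 3 *Ahcyl1* windows and in *Mat2a*, and the E-box (CACGTG; 7.15% of all) in *Enoph1*. Capitals mark the letters of the CCAAT box. The windows are *Mtr* at chr13:12258064-12258363 (minus strand), *Mat2a* at chr6:72439507-72439806 (minus), *Ahcy* at chr2:155074448-155074747 (minus) and *Mtap* at chr4:89137120-89137419 (plus).
Mtr: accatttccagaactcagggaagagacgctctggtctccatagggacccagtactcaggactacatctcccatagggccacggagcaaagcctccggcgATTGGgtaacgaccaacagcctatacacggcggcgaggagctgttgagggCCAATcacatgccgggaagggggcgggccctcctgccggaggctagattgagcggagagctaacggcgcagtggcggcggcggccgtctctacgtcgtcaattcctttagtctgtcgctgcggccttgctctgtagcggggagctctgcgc
Mat2a: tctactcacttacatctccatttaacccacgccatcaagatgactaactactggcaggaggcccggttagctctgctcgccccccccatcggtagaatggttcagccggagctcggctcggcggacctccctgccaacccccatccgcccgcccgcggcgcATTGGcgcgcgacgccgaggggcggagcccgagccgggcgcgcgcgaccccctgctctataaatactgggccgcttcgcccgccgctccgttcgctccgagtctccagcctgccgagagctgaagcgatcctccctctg
Ahcy: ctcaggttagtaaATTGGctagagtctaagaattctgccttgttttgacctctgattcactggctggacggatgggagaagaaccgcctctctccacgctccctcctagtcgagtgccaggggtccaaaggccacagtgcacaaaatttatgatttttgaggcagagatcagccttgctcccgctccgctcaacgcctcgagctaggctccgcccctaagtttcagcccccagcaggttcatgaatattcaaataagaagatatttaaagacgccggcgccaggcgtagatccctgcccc
Mtap: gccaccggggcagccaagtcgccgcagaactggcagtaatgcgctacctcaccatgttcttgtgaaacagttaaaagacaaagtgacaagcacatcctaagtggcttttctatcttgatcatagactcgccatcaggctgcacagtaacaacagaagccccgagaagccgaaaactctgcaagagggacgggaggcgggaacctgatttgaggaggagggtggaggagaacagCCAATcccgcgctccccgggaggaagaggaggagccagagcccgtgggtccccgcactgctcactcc
*Mtr* holds 2 CCAAT boxes, 1 on each strand, and the other 3 windows hold 1 each. GC made up 62.0% of the *Mtr* window, 67.0% of *Mat2a*, 52.7% of *Ahcy* and 57.0% of *Mtap*, against a median of 52.7% over all promoters. A match describes these letters only, and no binding was measured here.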

How the data were processed

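Bulk RNA was measured in 45 libraries, 23 of gastrocnemius and 22 of spinalis. Each was taken as a separate mouse, since the labels number the replicates of each group. The deposited values are read counts per gene, which the authors made with STAR 2.7.1b, SAMtools 1.9, Picard 2.20.2 and featureCounts of Subread 2.0.0 on GRCm39. Of 46 labelled samples, KO-ORX replicate 6 had no column and was not used. Ensembl identifiers matched GENCODE M21 (GRCm38) for 17433 of 17514 genes and 16920 of 16987 genes.

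Counts were fitted per experiment in edgeR 4.0.16 (R 4.3.3; TMM scaling, group means, quasi-likelihood F test), and p-values were adjusted across the whole table (Benjamini-Hochberg); thresholds were 0.01, or 0.05 for interactions. The filter kept genes at 0.5 CPM in at least 2 libraries, which was every gene of both tables. Levels are log2 CPM with a prior count of 2. SE is the absolute log2 fold change over the square root of F. Python 3.11.15, pandas 2.3.3, NumPy 2.4.6 and matplotlib 3.10.9 made summaries and figures. The pipeline was tested on simulated data.

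Alternatives were DESeq2 1.42.0, limma-voom (limma 3.58.1), library-size scaling, other filters, another threshold, fitting only the groups compared, a replicate block and leaving out each library. Summing genes with shared sequence, and leaving out the spinalis libraries that stood apart (2, or all 6), were chosen after seeing the data. Libraries stood apart, alone or as a pair, if each chi-square per gene to the rest of their group exceeded all those within the rest; genes with at least 20 counts over both libraries were used. Named genes were the members, *Actn3* and, per pathway list and comparison, up to 4 called genes of largest absolute fold change; neighbours were the 3 genes of highest Pearson r. The members and lists were chosen with earlier results of these data known. No 2 replicates of a group held the same counts. Median depth of 34.3 to 52.0 M counts gave at least 95 counts for every member in every library.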

Additional observations from a re-analysis of the deposited data

Results flagged for a closer look

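In 5 of 80 groups (10 members in 8 groups) 1 library stood far from the rest of its group, and chance gives about 1 in 20 groups. They are the lowest KO-DHT library for *Mat2a* (6.766, group median 7.158), the highest WT-sham library for *Ahcy* (2.35, median 2.143), the lowest KO-empty library for *Mtap* (3.777, median 4.252), the lowest KO-ORX library for *Mri1* (2.973, median 3.389) and the lowest KO-sham library for *Apip* (4.428, median 4.594), all as log2 CPM.

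The response to DHT differed between genotypes by the interaction test, which 3.24% of all genes passed, for *Mtr* (−0.7469, adjusted p = 5.07e-05). It also differed for 10 genes of the pathway lists (13, 15, 11, 16 and 5 genes measured). Among these the interaction, the response in KO minus that in WT, was positive for *Adk* (0.5066, adjusted p = 0.00913), *Cth* (1.4935, 0.0112), *Kyat3* (0.8894, 0.00272) and *Mettl21e* (1.1388, 0.00674). It was negative for *Mettl21c* (−1.5689, adjusted p = 4.5e-04), *Mthfd2* (−1.7568, 9.41e-04), *Odc1* (−1.2075, 9.88e-05), *Amd1* (−0.6519, 0.00608), *Amd2* (−0.59, 0.0376) and *Sms* (−0.3841, 0.0105). The *Amd2* call was lost in 12 of 22 fits that left out 1 library each, at an adjusted p of up to 0.0773. Without all 6 libraries that stood apart *Cth*, *Amd1*, *Amd2* and *Sms* did not pass. *Mat2a*, which did not pass with all libraries, passed without both WT-DHT libraries that stood apart (−0.6324, adjusted p = 0.00709). It did not pass without all 6.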

How the results depend on the processing

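The count of members called moved by over 1.5 times in 5 comparisons, that of the interaction with DHT (1 to 2) only where libraries were left out (below). In KO-ORX against KO-sham the count of 1 became 2 by DESeq2, 0 by limma-voom, 0 with library-size scaling, 0 with only the groups compared and 3 at the other threshold. In KO-sham against WT-sham the 1 became 3 by DESeq2 and 4 at the other threshold. In KO-DHT against KO-empty the 1 became 3 by DESeq2, 2 by limma-voom, 0 with only the groups compared and 3 at the other threshold. In KO-empty against WT-empty the 0 of edgeR (1 at an unadjusted p under 0.05; 0 by DESeq2 and limma-voom) became 1 at the other threshold.

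Calls over all genes at the other threshold (0.05, or 0.01 for interactions) were 1735 in WT-ORX, 1925 in KO-ORX, 1838 in KO-sham, 1260 in KO-ORX against WT-ORX, 1 for the interaction with ORX, 3078 in WT-DHT, 1840 in KO-DHT, 1557 in KO-empty, 3170 in KO-DHT against WT-DHT and 273 for the interaction with DHT. With only the groups compared they were 484 in KO-ORX, 498 in KO-DHT and 289 in KO-empty. DESeq2 called 127 genes for the interaction with ORX and 1201 in KO-DHT, and limma-voom 10 for the interaction with ORX.

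Some differences that had not passed changed sign. With library-size scaling these were *Mat2a* 0.0364 in KO-empty, *Mat2b* −0.0185 and *Apip* −0.003 in WT-DHT and *Apip* 0.0229 in KO-ORX against WT-ORX. In KO-ORX they were *Ahcy* 0.0691, *Mri1* 0.0706, *Apip* 0.0175, *Enoph1* 0.0687 and *Actn3* 0.1019; library-size scaling moved the median of all genes there by 0.1065, from 0.0145 to 0.121. By limma-voom they were *Mat2a* 0.0005 in KO-empty, *Ahcy* −0.0192 in KO-ORX against WT-ORX, *Ahcyl1* −0.0207 for the interaction with DHT and *Actn3* 0.0058 in KO-ORX. *Mat2a* in KO-empty was 0.0031 with at least 10 counts in every library and 0.0015 with only the groups compared. *Ahcy* summed with genes of shared sequence was −0.0341 in KO-ORX against WT-ORX.

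With each library left out in turn, members called ran from 0 to 2 in KO-ORX, 1 to 3 in KO-sham, 1 to 2 in KO-DHT and 1 to 2 for the interaction with DHT, and all genes called from 589 to 1116 in KO-ORX, 2 to 38 for the interaction with ORX and 450 to 700 in KO-empty. Differences whose sign changed ran as follows. In KO-ORX: *Actn3* −0.0712 to 0.0765, *Ahcy* −0.1507 to 0.0264, *Ahcyl1* −0.0069 to 0.088, *Mri1* −0.0838 to 0.0373 and *Mtap* −0.0256 to 0.0751. In KO-ORX against WT-ORX: *Ahcy* −0.0902 to 0.0786, *Ahcyl1* −0.0307 to 0.0642, *Apip* −0.054 to 0.0095, *Mat2a* −0.0457 to 0.0632 and *Mat2b* −0.0121 to 0.0232. In KO-DHT: *Actn3* −0.0985 to 0.0338 and *Ahcyl1* −0.1705 to 0.0638. In WT-DHT: *Ahcyl1* −0.1277 to 0.0311. In KO-empty: *Ahcyl1* −0.0077 to 0.1512 and *Mat2a* −0.0518 to 0.0664. *Ahcyl1* ran from −0.0592 to 0.1839 in KO-DHT against WT-DHT. Interactions with DHT: *Ahcyl1* −0.1258 to 0.1138 and *Apip* −0.0134 to 0.0752.

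With replicate number as a block in the castration experiment, no count of members or of all genes called moved by over 1.5 times. *Adi1* in KO-ORX did not pass (−0.25, adjusted p = 0.0183), *Mat2b* did (−0.19, 0.0077), and in KO-ORX against WT-ORX *Mat2a* was −0.0026 and *Mat2b* −0.0045. To see whether same-numbered mice deviated together, the mean of its group was subtracted from each gene's log2 CPM. The median r of these deviations between libraries of different groups was 0.007 over 33 same-numbered pairs. It was −0.009 over the 165 other pairs, both near 0. In the implant experiment the columns carry codes that no label carries or explains, and no replicate number, so no block was fitted. A grouping by these codes was not tested.

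Among calls, the percentage of positive fold changes moved with library-size scaling from 37.5 to 54.4% in WT-ORX, 35.7 to 78.6% in KO-ORX and 28.2 to 46.9% in KO-ORX against WT-ORX. It moved from 58.8 to 43.6% in WT-DHT, 41.3 to 52.9% in KO-empty, 44.1 to 65.3% in KO-DHT against WT-DHT and 41.5 to 55.1% for the interaction with DHT. In the same order, that scaling moved the median of all genes by 0.0383, 0.1065, 0.0451, −0.0684, 0.043, 0.0814 and 0.0392. Each shift had the direction of its percentage, and its part in the percentages was not tested. For the interaction with ORX 3 of 4 calls were positive by edgeR, 3 of 3 with library-size scaling, 39.4% by DESeq2 and 40.0% by limma-voom.

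Spinalis libraries that stood apart were left out in 2 alternatives chosen after seeing the data. Without both of WT-DHT, members called went from 1 to 2 for the interaction with DHT, and *Ahcyl1* changed sign to 0.0907 in WT-DHT, −0.0371 in KO-DHT against WT-DHT and −0.0942 for the interaction. Without all 6, all genes called were 1195 in WT-DHT, 428 in KO-DHT, 283 in KO-empty, 1301 in KO-DHT against WT-DHT and 273 for the interaction. Members called in KO-DHT went from 1 to 0 by edgeR, as *Ahcy* did not pass. Signs changed for *Ahcyl1* 0.1752 in KO-DHT and −0.1341 in KO-empty, *Mri1* −0.031 for the interaction and *Actn3* 0.03 in KO-DHT.

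Of 197 single-gene results, 191 held by DESeq2 and 6 gained a call. By limma-voom 188 held, 4 lost and 1 gained a call and 4 changed sign, and with library-size scaling 165 held, 21 lost and 2 gained a call and 9 changed sign. Of these 21 lost calls 8 were in KO-ORX, *Adi1* and 7 of pathway lists. With only the groups compared 150 held, 14 lost a call and 1 changed sign. With at least 10 counts in every library 192 held, 2 lost a call and 1 changed sign, and at the other threshold 183 held, 11 gained and 3 lost a call. With the replicate block 85 held, 2 lost (*Adi1* and *Kyat1* in KO-ORX) and 1 gained a call and 2 changed sign. With summed counts 196 held and 1 changed sign, but summing altered the counts of *Ahcy* and *Mat2a* only, so other results could hardly move. Without a filter 197 held. The filter had removed no gene (17514 and 16987 were tested), so this was the same fit and could not differ. Without both WT-DHT libraries that stood apart 100 of the spinalis results held, 3 lost and 1 gained a call and 3 changed sign, and without all 6, 86 held, 17 lost a call and 4 changed sign.

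Limits: the series gives RNA only, from bulk muscle, so enzyme activity and metabolites are not known. Groups hold 5 or 6 mice. Muscle, sex and age differ together between experiments. *Ahcy* shares sequence with other genes. Promoters and chromosomes are from GRCm38 and counts from GRCm39.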
